A study of Mus musculus with 18 samples.

Results

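Of the 18 libraries of the series, 6 came from primary murine enteric glial cell (EGC) cultures, and the comparison described here is the one between the 3 libraries of cultures given IL-1β at 10 ng/ml for 24 h and the 3 of cultures given vehicle. The 6 libraries were chosen by the treatment in their labels and by no measured value. All cultures were grown from the small bowel muscularis externa, the muscle layer of the gut with its nerve plexus, of mice whose genotype is labelled Bl6. For EGC cultures the methods name C57BL/6 or GFAPcre+ Ai14fl/fl animals aged 8 to 16 weeks. Cells were first expanded as neurospheres and then kept in differentiation medium, and the methods describe the cultures as mostly glia with few neurons and fibroblasts. No source used here says whether the 3 libraries of a group came from separate cultures.

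The table of this comparison listed 13452 genes with the authors' mean of each group, and 13445 of them had a mean of at least 1 in either group and were kept. Each value below is therefore the authors' mean over 3 libraries on a common scale, on which the genes added up to 997403 under IL-1β and 996690 under vehicle. The table gave no value per library. The spread between libraries, the depth and the error of a mean cannot be read from these means, the authors' own test columns were not used, no test was run, and "higher" and "lower" describe these means only. A gene was counted when its means differed over 1.5-fold, the fold limit of the study. Because the RNA came from whole cultures, fewer cells of a type and less RNA per cell cannot be told apart.

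IL-1β is a cytokine that is released by activated macrophages, among other cells. It binds the receptor Il1r1, which recruits the accessory chain Il1rap and the adaptor Myd88, and the kinases downstream switch on the transcription factors NF-κB and AP-1. Their usual targets are chemokines, adhesion molecules, acute phase proteins and the inhibitors that end the signal. Enteric glia surround the neurons of the gut wall, and their change of state after injury is called gliosis. The receptor genes were present in both groups. Il1r1 had a mean of 56.9 under IL-1β and 34.0 under vehicle. Il1rap, in contrast, had nearly equal means of 23.03 under IL-1β and 23.3 under vehicle.

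Markers of glia and of other cell types were present in both groups. The glial transcription factor Sox10 had a mean of 214 under IL-1β and 238 under vehicle, the calcium-binding protein S100b 237 and 276, and the filament protein Gfap 41.7 and 47.6, all within 1.5-fold. Transcripts that mark fibroblasts were abundant in both groups, and the 14 measured fibroblast markers added up to 18142 under IL-1β and 20522 under vehicle. The 29 measured glial identity genes added up to 4986 under IL-1β and 6285 under vehicle, so the shorter fibroblast list had the larger sum in both groups. Among the 5 measured macrophage markers, Lyz2 was at 137 and 114, while Csf1r, the receptor that defines these cells, was at 13.3 under IL-1β and 13.5 under vehicle. None of these 5 was past 1.5-fold. The part of these other cells in the differences below was not tested.

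Most genes differed little, and those that differed were more often lower than higher in IL-1β-treated EGCs. Of the 13445 genes, 571 (4.25%) were over 1.5-fold higher under IL-1β and 2855 (21.2%) were over 1.5-fold lower. At a 2-fold limit the counts were 136 higher (1.01%) and 1341 lower (9.97%). Past 4-fold the imbalance was larger still, with 14 genes higher and 256 lower. The whole distribution was shifted a little, since the median log2 ratio was −0.14 and 62.3% of genes had the larger mean under vehicle. Once the ratios were divided by their median, the counts became 936 higher and 2236 lower. That step moved the share of higher genes among those past the limit to 29.5%, against 16.7% as deposited.

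The excess of lower genes was largest among weakly expressed genes. Among genes whose average over both groups was at most 2, 37.0% were lower under IL-1β and 8.04% were higher. In the band from 20 to 50 the shares were 13.8% lower and 2.68% higher. Among the 211 genes with an average above 500 the order was turned round, with 6 genes lower (2.84%) and 11 higher (5.21%). The median log2 ratio moved with the level as well. It was −0.34 in the lowest band and 0.08 in the highest. A ratio is hence to be read beside its level in these data, and both are given below.

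**Figure D1:**
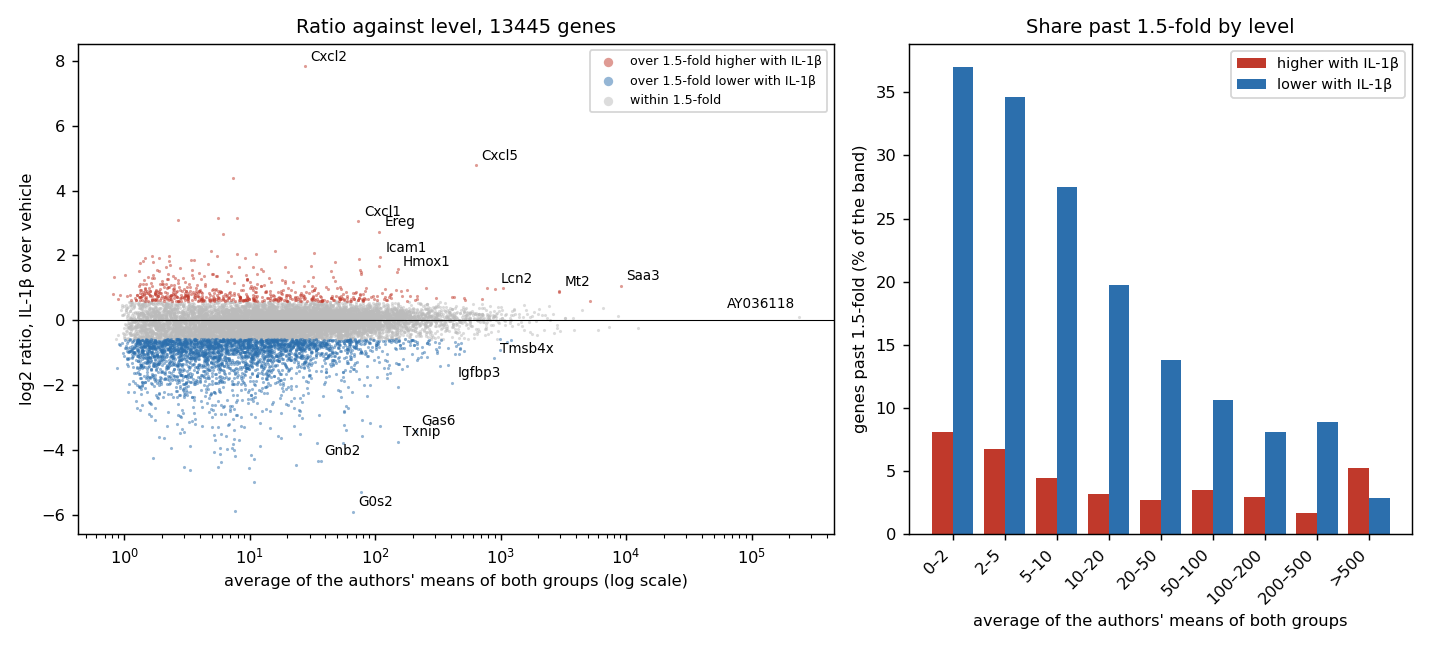
The left panel plots each of the 13445 genes by the average of the authors' means of both groups (log axis) and its log2 ratio of IL-1β over vehicle. The right panel gives the percentage of genes over 1.5-fold higher and lower under IL-1β in bands of that average; lower genes made up 37.0% of the lowest band and 2.84% of the highest.

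In absolute terms, a small part of the transcript total changed places. The sum of all gains under IL-1β was 88883, or 8.92% of the vehicle total, and the sum of all losses was 88170. Gains and losses were built up differently. Genes past 1.5-fold held 26.3% of the gains but 47.7% of the losses. The gains were concentrated in few transcripts, since the 14 largest beside AY036118 held 28.4% of all gains outside that transcript, while the 15 largest losses held 13.2% of all losses. AY036118, a transcript annotated inside the ribosomal RNA stretch of chromosome 17, was by far the most abundant in both groups, with 25.1% of the total under IL-1β and 23.3% under vehicle.

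AY036118 had the largest gain, and those next in size belonged mostly to acute phase, metal-binding and iron-storage transcripts that were abundant without IL-1β too. Saa3, an acute phase apolipoprotein encoded on chr7:46711998-46715700, gained 6446 units, with means of 12316 under IL-1β and 5869 under vehicle. It was the second most abundant transcript under IL-1β and the sixth under vehicle. Fth1, the iron-storage ferritin heavy chain, followed, with a mean of 6139 under IL-1β and 4085 under vehicle. Ftl1, the light chain, came further down by gain. It stood at 4978 under IL-1β and 3989 under vehicle and thus stayed within 1.5-fold. The neighbouring metallothionein genes Mt2 and Mt1 on chromosome 8, whose proteins bind zinc and copper, behaved alike. Mt2 was at 3793 under IL-1β and 2039 under vehicle, and Mt1 was at 3766 under IL-1β and 2070 under vehicle.

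Further gains came from secreted proteins and from the cytoskeleton. Lcn2, which binds bacterial iron carriers, had a mean of 1201 under IL-1β and 615 under vehicle. Timp1, an inhibitor of matrix metalloproteinases, had a mean of 1039 under IL-1β and 517 under vehicle. C3, the central complement protein, was at 2798 under IL-1β and 2061 under vehicle. These abundant genes had modest ratios, yet among genes of similar level (10 equal bins) Saa3, Timp1, Lcn2 and Mt2 had percentiles of the ratio of 99.6, 99.4, 99.2 and 98.96. Actb, the cytoplasmic β-actin often used as a reference gene, gained 1748 units, with 7451 under IL-1β and 5702 under vehicle. Cxcl5 gained 1182 units at a 27.5-fold ratio, the seventh largest gain with AY036118 counted.

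The largest losses belonged to matrix, mitochondrial and cytoskeletal transcripts, mostly with small ratios. Dcn, the collagen-binding proteoglycan decorin, had a mean of 5298 under IL-1β and 6593 under vehicle. The fibrillar collagen chains Col1a2 and Col3a1 showed the same direction. Col1a2 was at 2305 under IL-1β and 3064 under vehicle, and Col3a1 was at 2628 under IL-1β and 3300 under vehicle. Col1a1, their partner chain, stood instead at 3308 under IL-1β and 3185 under vehicle. Larger ratios were found for Tmsb4x, an actin-sequestering peptide, with 548 under IL-1β and 1233 under vehicle. Ppia, a proline isomerase also used as a reference gene, had a mean of 684 under IL-1β and 1308 under vehicle. Igfbp3, a carrier of insulin-like growth factors, was 3.80-fold lower, with 170 under IL-1β and 647 under vehicle.

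**Figure D2:**
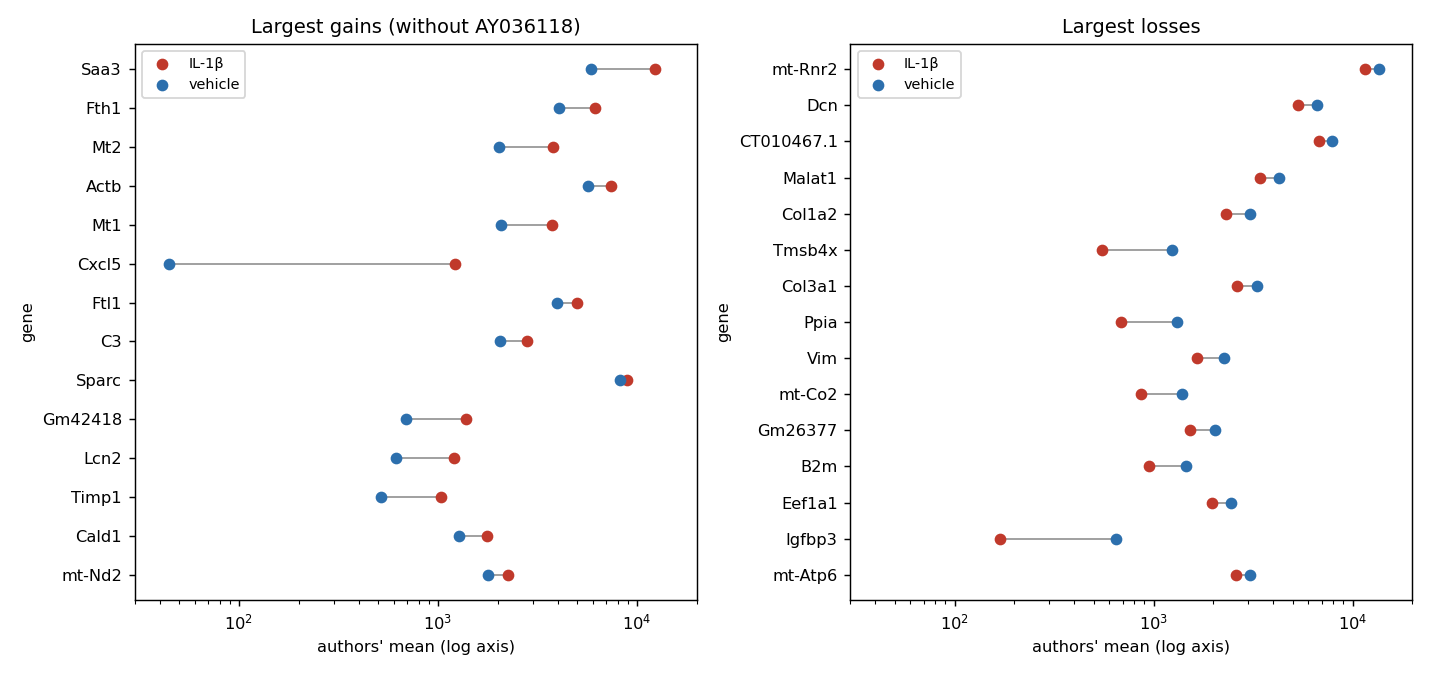
Each row is a gene, with the authors' mean under IL-1β and under vehicle as points on a log axis, for the 14 largest gains beside AY036118 and the 15 largest losses. Cxcl5 stands at 1226 under IL-1β and 44.6 under vehicle, whereas most other rows lie close together at high level.

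Ranking by ratio named other genes than ranking by gain. Of the 50 genes with the largest gain and the 50 with the largest ratio, 3 were shared, namely Cxcl5, Ereg and Ccl7. The 50 largest ratios had a median level of 12.6 under IL-1β. Cxcl2, a neutrophil-attracting chemokine, had the largest ratio of all genes and the lowest vehicle mean of all genes, with 54.7 under IL-1β and 0.24 under vehicle. Its 229-fold ratio thus rests on a near-absent baseline. Cxcl10, a chemokine for T cells, also started from a very low vehicle level and was 20.9-fold higher, with 14.2 under IL-1β and 0.68 under vehicle. In the other direction, 2 genes were shared by the 50 largest losses and the 50 lowest ratios. They were Gas6, a ligand of TAM receptors, with 36.4 under IL-1β and 387 under vehicle, and Txnip, an inhibitor of thioredoxin, with 21.1 under IL-1β and 283 under vehicle.

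The most strongly lower gene of at least 50 in either mean was G0s2, an inhibitor of triglyceride hydrolysis, with 2.18 under IL-1β and 131 under vehicle. It was 60.1-fold lower and came from about the level that Cxcl1 reached under IL-1β. Anxa1, a phospholipid-binding protein with anti-inflammatory activity, had a mean of 20.7 under IL-1β and 199 under vehicle. F2r, the thrombin receptor, was at 7.45 under IL-1β and 104 under vehicle. Cers2, a ceramide synthase, was at 10.9 under IL-1β and 102 under vehicle. Above a mean of 50 in either group, 5 genes were over 4-fold higher and 28 were over 4-fold lower.

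Of the chemokines with the largest ratios, 3 lie close together in the genome. On chromosome 5 (GRCm38), the measured genes between Cxcl5 and Btc were, in order, Cxcl5, Pf4, Cxcl1, Cxcl2, Mthfd2l, Ereg, Areg and Btc. Cxcl1, another neutrophil chemokine, had a mean of 131 under IL-1β and 15.8 under vehicle. Ereg, an epidermal growth factor family ligand, was 6.63-fold higher, with 186 under IL-1β and 28.1 under vehicle. The stretch was not uniform. Pf4, a platelet chemokine located between Cxcl5 and Cxcl1, stood at 3.03 under IL-1β and 3.99 under vehicle. Areg, the ligand next to Ereg, was at 4.84 under IL-1β and 9.92 under vehicle, so that the 2 neighbouring ligands differed in opposite directions.

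Promoter sequences from RefSeq (GRCm38.p6, 250 bases before to 50 after the start of each gene) were matched to 9717 of the 13445 genes by symbol. The NF-κB motif was searched as GGANTTTCC and AP-1 as TGANTCA, each on both strands. Of 341 matched genes that were higher under IL-1β, 15 (4.40%) held the NF-κB letters, against 32 of 2079 lower genes (1.54%) and 150 of all 9717 (1.54%). The AP-1 letters stood in 12.9% of higher genes, 5.53% of lower genes and 6.17% of all. Of the 7 matched genes over 4-fold higher, 4 held the NF-κB letters, namely Cxcl1, Cxcl2, Cxcl10 and Sprr2b. A match describes the letters and not binding.

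Most of the other motifs searched were about as frequent in higher genes as in all. The CRE motif of cAMP signaling, searched as TGACGTCA, stood in 2.93% of higher genes and 3.67% of all. The antioxidant element of NRF2, searched as TGACNNNGC, stood in 16.1% of higher genes and 16.98% of all. The STAT site, searched as TTCNNNGAA, stood in 7.62% of higher genes and 7.99% of all. For the E-box, searched as CACGTG, the shares were 12.3% of higher genes and 12.01% of all. For FOXO, searched as TGTTTAC, they were 3.23% of higher genes and 3.10% of all. Core promoter letters differed more. The TATA letters, searched as TATAAA, stood in 12.6% of higher genes and 8.68% of all. The GC box, searched as GGGCGG, stood in 61.3% of higher genes and 69.8% of all. All were searched on both strands. A stretch can match both AP-1 and the antioxidant element, which share their first 3 letters. Other spellings were looked at as well, and these were kept with the shares already seen.

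To show where the letters stand, the promoters of 5 genes are given, chosen after their values were seen. They were higher under IL-1β and held the NF-κB letters. They encode 3 chemokines, the adhesion molecule Icam1 and Nfkbia, the inhibitor that returns NF-κB to the cytoplasm. Sequences run 5′ to 3′ on the strand of the gene, and capitals mark the matched letters in either orientation.
Cxcl1 (chr5:90890995-90891294, plus strand): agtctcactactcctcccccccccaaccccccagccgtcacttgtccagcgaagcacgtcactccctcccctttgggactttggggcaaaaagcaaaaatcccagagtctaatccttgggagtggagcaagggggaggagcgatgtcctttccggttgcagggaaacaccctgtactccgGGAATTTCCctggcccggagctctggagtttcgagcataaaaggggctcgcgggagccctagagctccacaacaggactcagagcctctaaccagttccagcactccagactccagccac
Cxcl2 (chr5:90903649-90903948, plus strand): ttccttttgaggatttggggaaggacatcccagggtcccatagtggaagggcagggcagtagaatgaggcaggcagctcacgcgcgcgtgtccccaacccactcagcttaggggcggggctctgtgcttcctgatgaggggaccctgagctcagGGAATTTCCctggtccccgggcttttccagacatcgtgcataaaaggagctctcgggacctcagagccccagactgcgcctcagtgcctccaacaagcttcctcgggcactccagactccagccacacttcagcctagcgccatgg
Cxcl10 (chr5:92348840-92349139, minus strand): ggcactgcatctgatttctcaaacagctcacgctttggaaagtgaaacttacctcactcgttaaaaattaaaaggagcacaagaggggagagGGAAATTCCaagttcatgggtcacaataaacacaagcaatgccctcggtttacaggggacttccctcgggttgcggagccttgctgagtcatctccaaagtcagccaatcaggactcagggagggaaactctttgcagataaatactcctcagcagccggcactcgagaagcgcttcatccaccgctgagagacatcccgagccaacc
Icam1 (chr9:21015690-21015989, plus strand): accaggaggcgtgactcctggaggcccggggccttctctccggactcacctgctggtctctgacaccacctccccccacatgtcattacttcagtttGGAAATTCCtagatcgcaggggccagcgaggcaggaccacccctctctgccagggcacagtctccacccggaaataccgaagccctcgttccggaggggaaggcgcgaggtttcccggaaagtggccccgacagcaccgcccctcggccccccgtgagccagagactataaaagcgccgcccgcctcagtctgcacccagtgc
Nfkbia (chr12:55492598-55492897, minus strand): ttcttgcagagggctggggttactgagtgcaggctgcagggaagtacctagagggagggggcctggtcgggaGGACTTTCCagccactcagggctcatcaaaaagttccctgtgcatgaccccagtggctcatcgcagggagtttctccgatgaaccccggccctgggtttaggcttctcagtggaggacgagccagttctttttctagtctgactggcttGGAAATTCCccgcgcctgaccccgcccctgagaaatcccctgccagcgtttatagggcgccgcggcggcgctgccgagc
The match begins 70 bases before the start in Cxcl1, 96 in Cxcl2, 158 in Cxcl10 and 153 in Icam1. Nfkbia holds it at 178 and again at 29 bases before the start. Cxcl1 and Cxcl2 carry identical letters on the strand shown.

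Genes of the NF-κB pathway were often higher, at moderate ratios. Of 28 measured subunits, feedback inhibitors and targets, 13 (46.4%, against 4.25% of all genes) were higher and 1 was lower, and the list's median log2 ratio was 0.52, against −0.14 over all genes. Subunits were among them. Rela, the main activating subunit, had a mean of 85.0 under IL-1β and 47.2 under vehicle. Nfkb2, an NF-κB precursor, was at 66.3 under IL-1β and 33.0 under vehicle. Inhibitors differed among themselves. Nfkbia was higher and had a mean of 339 under IL-1β and 171 under vehicle. Tnip1, which dampens the signal together with Tnfaip3, was higher too, at 164 under IL-1β and 51.6 under vehicle. Icam1, a ligand of leukocyte integrins, was 3.83-fold higher, with 173 under IL-1β and 45.3 under vehicle. Tnip2, another Tnfaip3-binding inhibitor, was lower, with 7.27 under IL-1β and 13.8 under vehicle. Tnfaip3 itself, at 1.33 under IL-1β and 1.63 under vehicle, and the deubiquitinase Cyld, at 16.7 under IL-1β and 16.9 under vehicle, were within 1.5-fold.

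For the steps before NF-κB the shares were near those of all genes. Of 20 measured genes of the IL-1 receptor and its proximal signaling, 1 was higher, Il1r1, and 4 (20%, against 21.2% of all genes) were lower. Peli1, a ubiquitin ligase of this pathway, had a mean of 17.5 under IL-1β and 34.0 under vehicle. Tollip, an inhibitor of receptor signaling, was at 5.94 under IL-1β and 29.6 under vehicle. Chuk, a subunit of the IκB kinase, was at 6.02 under IL-1β and 14.3 under vehicle. Ikbkb, the other catalytic subunit, stood at 40.1 under IL-1β and 28.6 under vehicle, within 1.5-fold.

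Among secreted acute phase and complement proteins, 7 of 23 measured genes (30.4%, against 4.25% of all genes) were higher and 3 (13.0%, against 21.2%) were lower, and the list added up to 21195 under IL-1β and 12927 under vehicle. Saa3 carried most of that difference. Saa1, a related apolipoprotein gene nearby on chromosome 7, had a similar ratio at a far lower level, with 26.6 under IL-1β and 11.5 under vehicle. Cfb, which activates the alternative complement pathway, had a mean of 119 under IL-1β and 71.5 under vehicle. Among the lower members, Cd59a, which blocks the membrane attack complex, was at 50.4 under IL-1β and 91.5 under vehicle.

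Cytokine and chemokine genes differed in both directions. Of 13 measured cytokines, 2 (15.4%, against 4.25% of all genes) were higher and 2 (15.4%, against 21.2%) lower. Among 14 measured monocyte and lymphocyte chemokines, 4 (28.6%, against 4.25%) were higher and 4 (28.6%, against 21.2%) lower. Il6 was 2.40-fold higher, with 13.4 under IL-1β and 5.58 under vehicle. Clcf1, which signals through the CNTF receptor, was lower, at 1.40 under IL-1β and 8.60 under vehicle. Tgfb3, a TGF-β ligand, was at 9.74 under IL-1β and 23.1 under vehicle. Csf1, the macrophage growth factor, was within 1.5-fold at 137 under IL-1β and 106 under vehicle. Ccl2, which attracts monocytes, had a mean of 96.1 under IL-1β and 55.0 under vehicle. Ccl7, a close relative, was 2.96-fold higher, with 227 under IL-1β and 76.8 under vehicle. Of 21 measured genes of MHC class I presentation, 7 (33.3%, against 21.2% of all genes) were lower and 1 (4.76%, against 4.25%) was higher. B2m, the invariant light chain, had a mean of 952 under IL-1β and 1461 under vehicle. H2-D1, a class I heavy chain, was at 87.4 under IL-1β and 224 under vehicle, whereas H2-K1, another one, was within 1.5-fold. H2 genes are near-identical in parts, so reads may be split between them.

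The redox and iron lists had larger sums under IL-1β. Of 34 measured NRF2 and glutathione genes, 7 (20.6%, against 4.25% of all genes) were higher and 4 lower, and they added up to 4895 under IL-1β and 4009 under vehicle. Hmox1, which degrades heme, had a mean of 222 under IL-1β and 78.4 under vehicle. Sqstm1, an autophagy receptor, was at 865 under IL-1β and 544 under vehicle. Slc7a11, the cystine importer, was 4.36-fold higher at low level, with 25.7 under IL-1β and 5.89 under vehicle. Txn1, thioredoxin itself, went against them, with 161 under IL-1β and 357 under vehicle. The summed level of the 28 heme and iron genes was 13578 under IL-1β and 9685 under vehicle, of which the ferritin chains held the most. By number, 5 members (17.9%, against 4.25% of all genes) were higher and 5 (17.9%, against 21.2%) lower. The list's median log2 ratio was −0.08, against −0.14 over all genes. Among the lower ones, Heph, a ferroxidase, was at 14.1 under IL-1β and 26.5 under vehicle. Genes driven by the transcription factor ATF4 had a median log2 ratio of 0.30, against −0.14 over all genes. In that list, 4 of 29 (13.8%, against 4.25% of all genes) were higher and 1 (3.45%, against 21.2%) was lower. Psat1, an enzyme of serine synthesis, had a mean of 143 under IL-1β and 90.1 under vehicle. Phgdh, which starts that pathway, was at 91.2 under IL-1β and 57.2 under vehicle.

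Lipid, oxygen and eicosanoid genes included differences both ways. Of 36 measured triglyceride storage and lipoprotein genes, 4 (11.1%, against 4.25% of all genes) were higher and 5 (13.9%, against 21.2%) lower. Olr1, a receptor for oxidized lipoproteins, was 3.73-fold higher, at 118 under IL-1β and 31.7 under vehicle. Angptl4, an inhibitor of lipoprotein lipase, was at 113 under IL-1β and 38.8 under vehicle. Lrp1, a large endocytic receptor, was among the lower genes at high level, at 208 under IL-1β and 419 under vehicle. Of 20 measured prostaglandin and leukotriene genes, 3 (15%, against 4.25%) were higher and 4 (20%, against 21.2%) lower. Ptges, the inducible prostaglandin E synthase, was higher, at 66.6 under IL-1β and 26.2 under vehicle. Ptgs2, of the same list, was within 1.5-fold at 7.65 under IL-1β and 9.95 under vehicle. Lta4h, which makes leukotriene B4, was lower, at 7.68 under IL-1β and 27.7 under vehicle. Of 38 measured genes of glycolysis and the hypoxia response, 3 (7.89%) were higher and 7 (18.4%) lower, near the 4.25% and 21.2% of all genes. P4ha2, a catalytic subunit of the collagen prolyl hydroxylase, was at 236 under IL-1β and 139.8 under vehicle, whereas P4ha1, the alternative subunit, was at 139.6 under IL-1β and 239 under vehicle. Adm, the vasodilator peptide adrenomedullin, was at 193 under IL-1β and 101 under vehicle, while Vegfa, the endothelial growth factor, was at 39.6 under IL-1β and 78.9 under vehicle.

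Receptors and growth factors differed in both directions. Of 30 measured purine, sphingolipid and other G protein-coupled receptor genes, 5 (16.7%, against 4.25% of all genes) were higher and 7 (23.3%, against 21.2%) lower. Bdkrb2, a bradykinin receptor, was 3.10-fold higher, at 16.1 under IL-1β and 5.19 under vehicle. Adora2b, an adenosine receptor, was at 42.8 under IL-1β and 24.9 under vehicle, and S1pr2, a receptor of sphingosine 1-phosphate, at 44.6 and 25.1. S1pr1 and S1pr3, which bind the same lipid, were lower at under 10 units. Of 37 measured growth and neurotrophic factors, 12 (32.4%, against 21.2% of all genes) were lower and 2 higher. Pros1, which shares its receptors with Gas6, was at 85.7 under IL-1β and 219 under vehicle. Artn, a ligand of the GDNF family, was at 4.58 under IL-1β and 21.6 under vehicle. Ccn2, a matricellular growth factor, was at 10.2 under IL-1β and 48.5 under vehicle.

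Interferon-stimulated genes were mostly within 1.5-fold, with 3 of 36 measured members (8.33%, against 4.25% of all genes) higher and 4 (11.1%, against 21.2%) lower. All 3 higher members encode guanylate-binding proteins. Gbp2 was at 47.1 under IL-1β and 14.7 under vehicle, Gbp6 at 18.3 and 6.19, and Gbp3 at 4.50 and 2.75. Gbp7, of the same family, was within 1.5-fold at 12.4 under IL-1β and 14.1 under vehicle. Ifit2, an antiviral RNA-binding protein, was at 2.40 under IL-1β and 5.48 under vehicle. Of 33 measured genes of endoplasmic reticulum folding and the unfolded protein response, none was higher and 7 (21.2%) were lower, a share equal to that of all genes. Manf, a secreted stress-response protein, was at 77.6 under IL-1β and 138 under vehicle. Syvn1, a ubiquitin ligase of this compartment, was at 0.26 under IL-1β and 15.1 under vehicle. Of 13 measured tubulin genes, 3 (23.1%, against 4.25% of all genes) were higher, 1 (7.69%, against 21.2%) was lower and 9 were within 1.5-fold. Their median log2 ratio was 0.04. Tuba1c, an α-tubulin, was at 159 under IL-1β and 81.2 under vehicle, and Tubb6, a β-tubulin, at 114 and 69.3.

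Secreted matrix proteases and their inhibitors differed in both directions. Of 47 measured members, 7 (14.9%, against 4.25% of all genes) were higher and 12 (25.5%, against 21.2%) lower. Mmp3, a metalloproteinase that cleaves many matrix proteins, had a mean of 509 under IL-1β and 308 under vehicle. Adamts5, a proteoglycan-degrading enzyme, was at 334 under IL-1β and 623 under vehicle. Both plasminogen activators were lower. Plat was at 10.4 under IL-1β and 23.6 under vehicle, and Plau was at 2.15 under IL-1β and 7.94 under vehicle. Of 201 measured solute carriers, 17 (8.46%) were higher and 45 (22.4%) lower, the second share being close to the 21.2% of all genes. Slc15a3, a lysosomal peptide transporter, was 8.83-fold higher, with 14.2 under IL-1β and 1.60 under vehicle. Slc6a6, the taurine transporter, was at 58.1 under IL-1β and 137 under vehicle.

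Immediate-early genes differed in both directions at 24 h. Of 20 measured AP-1, EGR and immediate-early genes, 2 (10%, against 4.25% of all genes) were higher and 6 (30%, against 21.2%) lower. Fosl1, a Fos family member, was 8.99-fold higher, with 9.99 under IL-1β and 1.11 under vehicle. Junb, an AP-1 subunit, had a mean of 34.5 under IL-1β and 98.0 under vehicle. Egr1 was at 30.2 under IL-1β and 72.5 under vehicle, and Fos itself at 15.04 and 43.9. Of 28 measured genes that dampen ERK signaling, 11 (39.3%, against 21.2%) were lower and 2 (7.14%, against 4.25%) higher. Dusp6, a phosphatase of ERK, was at 3.11 under IL-1β and 21.8 under vehicle. Spry2, a receptor-level inhibitor, was at 37.1 under IL-1β and 97.5 under vehicle. Socs3, which inhibits JAK-STAT signaling, was 20.3-fold lower, with 3.44 under IL-1β and 69.99 under vehicle.

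Among developmental signaling lists, those of the Wnt pathway and of axon guidance had large shares of lower genes. Of 32 measured Wnt pathway genes, 15 (46.9%, against 21.2% of all genes) were lower, with a median log2 ratio of −0.57. None was higher, against 4.25% of all genes. Wnt5a, a ligand of the non-canonical branch, had a mean of 30.1 under IL-1β and 61.0 under vehicle. Fzd2, a receptor, was at 15.7 under IL-1β and 42.7 under vehicle. Of 53 measured axon guidance genes, 23 (43.4%) were lower and 1 (1.89%, against 4.25% of all genes), the ephrin receptor Epha4, was higher. Sema3e, a secreted guidance ligand, had a mean of 109 under IL-1β and 172 under vehicle. Nrp1, a semaphorin receptor, was at 40.0 under IL-1β and 88.4 under vehicle. Slit3, another ligand, was at 12.4 under IL-1β and 46.2 under vehicle. The Notch list differed, with 4 of 14 measured genes (28.6%) lower and 2 (14.3%) higher. The median of the higher mean was 15.7 in the Wnt list, 14.7 in the axon guidance list and 11.1 in the Notch list, against 17.2 over all genes. The part of the level in these counts was not tested.

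The TGF-β and BMP list was split. Of 41 measured members, 14 (34.1%, against 21.2% of all genes) were lower and 3 (7.32%, against 4.25%) higher, and its median of −0.15 lay next to that of all genes. Id3, an inhibitor of basic helix-loop-helix factors, had a mean of 71.1 under IL-1β and 185 under vehicle. Tgfbr2, a receptor, was at 80.9 under IL-1β and 166 under vehicle. Smad3, which carries the signal to the nucleus, stood at 45.5 under IL-1β and 29.9 under vehicle. Acvr1, a BMP receptor, was at 4.28 under IL-1β and 40.8 under vehicle.

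Genes linked to growth factor withdrawal under FOXO factors were lower in 9 of 24 cases (37.5%, against 21.2% of all genes) and higher in none, with a median of −0.53. Beside Txnip, Gadd45a, a growth arrest gene, had a mean of 56.5 under IL-1β and 120 under vehicle. Cell cycle genes were lower in 19 of 47 cases (40.4%, against 21.2% of all genes) and higher in none. They were weakly expressed, with a median of the higher mean of 8.81, against 17.2 over all genes. Among all genes with an average over 5 and up to 10, 27.5% were lower. The part of the level in the cell cycle count was not tested. The cell cycle list holds inhibitors as well as drivers. Cdkn2a, which encodes cell cycle inhibitors, had the largest level among the lower members, with 85.4 under IL-1β and 245 under vehicle. Cdk1, the mitotic kinase, was at 0.83 under IL-1β and 9.58 under vehicle. Ccnd2, a G1 cyclin, was the most abundant member and stood at 2259 under IL-1β and 2039 under vehicle. Of 17 measured circadian clock genes, 8 (47.1%, against 21.2%) were lower and 1 was higher. Bhlhe40, a clock repressor, had a mean of 20.6 under IL-1β and 54.5 under vehicle.

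Glial and neuronal genes mostly had the larger mean under vehicle, and part of them were past 1.5-fold. Of 29 measured glial identity genes, 11 (37.9%, against 21.2% of all genes) were lower and none was higher, with a median log2 ratio of −0.45, against −0.14 over all genes. The mean was larger under vehicle for 26 of the 29, against 62.3% of all genes. Foxd3, a neural crest transcription factor, was at 16.2 under IL-1β and 39.0 under vehicle. The low-affinity neurotrophin receptor Ngfr was level at 645 under IL-1β and 649 under vehicle. Of 23 measured neuron markers, 11 (47.8%, against 21.2%) were lower and none was higher. All 23 had the larger mean under vehicle, with a median log2 ratio of −0.58. Nos1, the neuronal nitric oxide synthase, had a mean of 49.8 under IL-1β and 101 under vehicle. Elavl4, an RNA-binding protein of neurons, was at 50.6 under IL-1β and 89.0 under vehicle. Of the 14 fibroblast markers, 1 (7.14%, against 4.25% of all genes) was higher and 1 (7.14%, against 21.2%) was lower. Pdpn, a mucin-like glycoprotein, was at 628 under IL-1β and 412 under vehicle, and the receptor Pdgfra at 54.9 and 112.

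**Figure D3:**
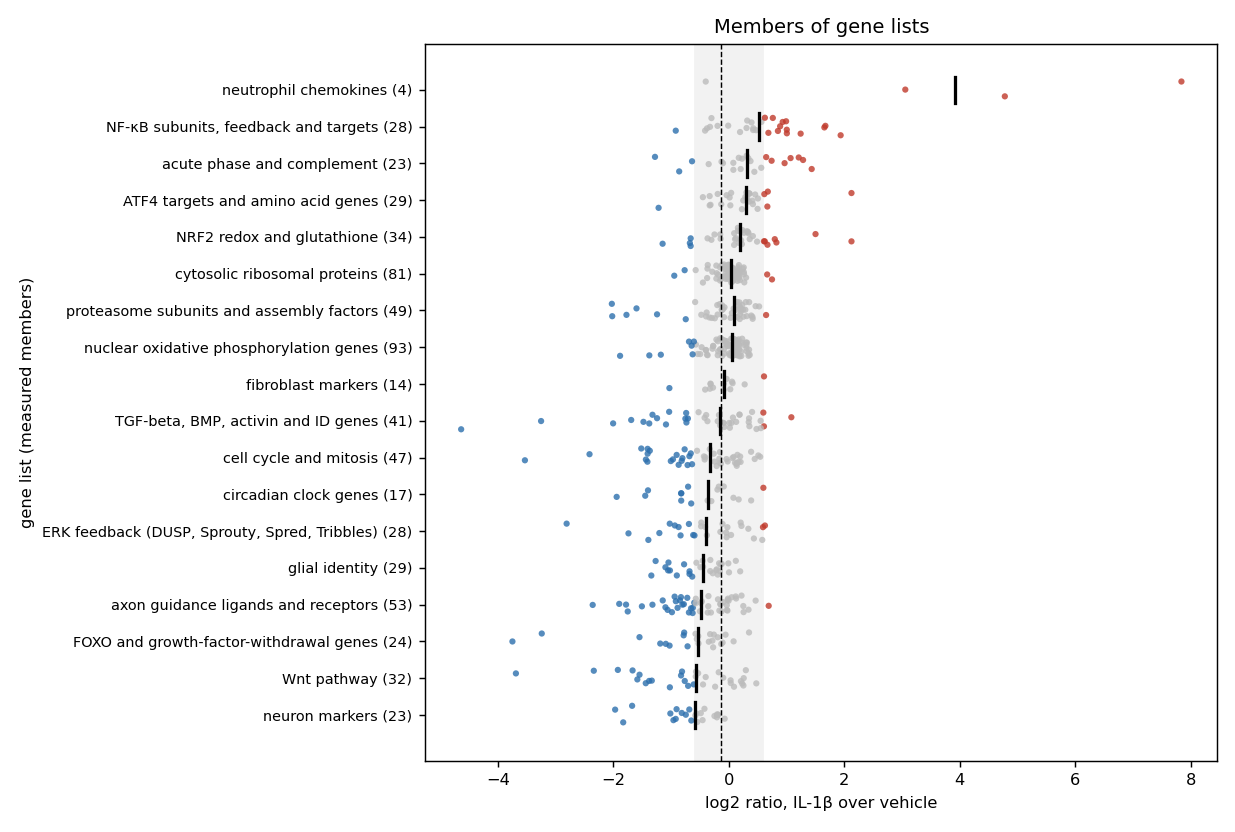
Each point is a measured gene of the list named on the left, placed by its log2 ratio of IL-1β over vehicle. The bar is the median of the list, the dashed line the median of all genes (−0.14) and the grey band the range within 1.5-fold; the NF-κB list has its median at 0.52 and the Wnt list at −0.57.

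Genes of large complexes give a view of the spread of the ratios within a group. Cytosolic and mitochondrial ribosomal proteins, proteasome genes and nuclear genes of oxidative phosphorylation came to 300 measured members. Not all of them need be made in fixed proportion. The proteasome and oxidative phosphorylation lists also hold assembly factors, such as Psmg1 and Ndufaf1. Psmb9 and Psmb10 are alternative core subunits of the proteasome. Psmb10 was among the higher members, and Psmb9 and Psmg1 were among the lower ones. Reads of ribosomal protein genes may be split with pseudogene copies. The part of such members in the spread was not tested. The median log2 ratio of the 300 members was 0.05, and the middle part of them, between the lower and upper quartiles, lay from −0.14 to 0.17. The tail was on the lower side, though lower genes were rarer here than over all genes. Of the 300 members, 23 (7.67%, against 21.2% of all genes) were lower and 3 (1%, against 4.25%) higher. Past 2-fold, 15 were lower and none was higher, where all genes had shares of 9.97% and 1.01%. Psma5, a core proteasome subunit, had a mean of 9.14 under IL-1β and 37.3 under vehicle. Psmb7, another core subunit, was at 20.3 under IL-1β and 61.6 under vehicle. Ndufa1, a subunit of complex I, was at 11.9 under IL-1β and 44.1 under vehicle. Psma7, which sits in the same core ring as Psma5, in contrast, stood at 286 under IL-1β and 271 under vehicle.

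Single members of other families stood apart in the same way. Gnb2, a G protein β subunit, was 20.2-fold lower, with 3.33 under IL-1β and 67.3 under vehicle, while its paralog Gnb1 was at 289 under IL-1β and 266 under vehicle. H3f3a, which encodes the histone variant H3.3, had a mean of 321 under IL-1β and 553 under vehicle. H3f3b, which encodes the same protein, stood at 567 under IL-1β and 583 under vehicle. Pfn1, the actin-binding protein profilin, was at 1.17 under IL-1β and 15.2 under vehicle. Hba-a1, an α-globin gene, was at 3.79 under IL-1β and 151 under vehicle, whereas its near-identical copy Hba-a2 was at 7.99 under IL-1β and 11.1 under vehicle. Reads of these copies may be split between them, so the Hba-a1 value is uncertain.

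Copies of this kind touched ribosomal protein genes above all. Among 140 named pseudogenes with a measured parent gene, 12 had a larger mean than the parent in both groups. Rpl10-ps3 stood at 1452 under IL-1β and 1360 under vehicle, while Rpl10 itself was at 12.2 under IL-1β and 7.70 under vehicle. In 10 sets of genes, 32 genes in all, the means of both groups were equal to 9 decimals. The largest values among them were those of Gm11518 and Rpl27-ps3, at 150 under IL-1β and 256 under vehicle. Rpl7a, the ribosomal protein with the lowest ratio, had a mean of 213 under IL-1β and 410 under vehicle, and its pseudogenes Rpl7a-ps5 and Rpl7a-ps11 were lower too. Such values cannot be assigned to a single gene.

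The ratio also moved with the base composition of the transcript end, from which these 3′ libraries were read. Over 5395 protein-coding genes with an average of at least 20, the GC content of the last 300 bases of the longest transcript and the log2 ratio had a Spearman rho of 0.28. The genes share libraries and are not independent replicates. Other features gave smaller values, with 0.20 for the GC content of the whole transcript, −0.18 for gene length, −0.17 for the longest run of A in the last 300 bases, −0.14 for transcript length and −0.04 for the number of exons. Among 1326 genes with an average of at least 100 the rho for the transcript end was 0.26. In the quintile of genes poorest in GC, 18.6% were lower and 2.13% higher under IL-1β, with a median log2 ratio of −0.18. In the richest quintile, 4.49% were lower and 3.83% higher, with a median of 0.10. This feature was named after all values had been seen.

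The lists above differed in the same feature, and its part in their counts was not tested. The median GC content of the transcript end was 48.7% in acute phase genes, 46.7% in ribosomal protein genes and 44.7% in the NF-κB list. It was 39.5% in the Wnt list, 39.3% in the glial list and 37.7% in the FOXO list. Other lists with many lower genes lay between, at 43.3% in neuron markers, 42.7% in the cell cycle list and 42.3% in the axon guidance list. Several single genes went against the trend with GC content. Cxcl5, at 29.7%, and Ereg, at 31.0%, were poor in GC and strongly higher under IL-1β. Gnb2, at 54.3%, and Tinagl1, at 52.3%, were rich in GC and strongly lower. Tinagl1, a matrix glycoprotein, had a mean of 16.6 under IL-1β and 139.8 under vehicle.

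**Figure D4:**
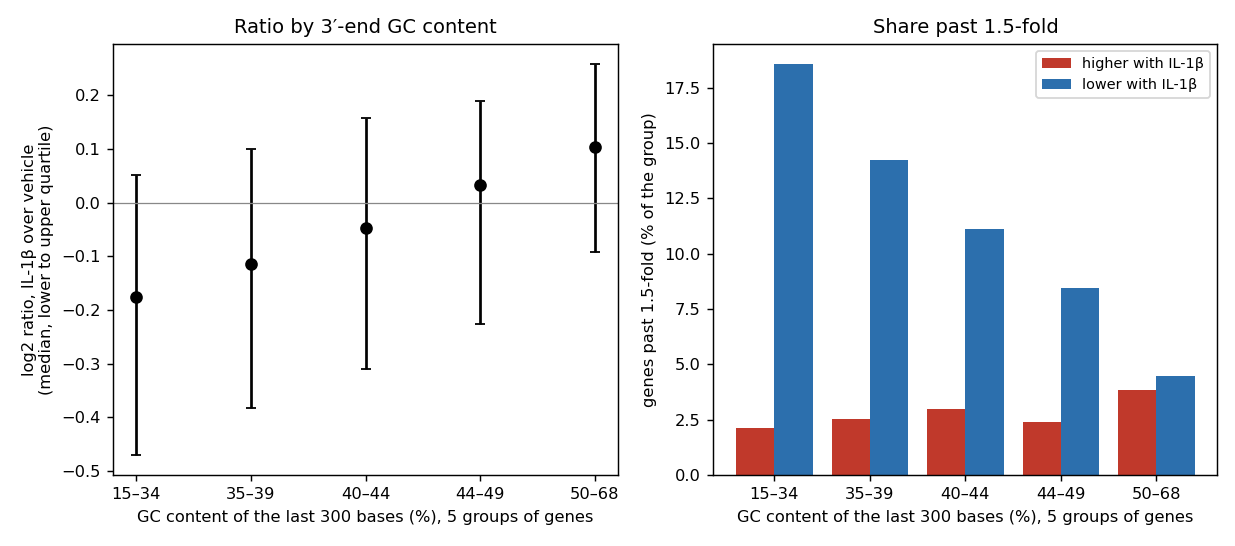
Protein-coding genes with an average of at least 20 were divided into 5 groups of similar size by the GC content (percent) of the last 300 bases of their longest transcript. The left panel shows the median log2 ratio of IL-1β over vehicle with its lower and upper quartiles, and the right panel the percentage of genes past 1.5-fold; the share of lower genes was 18.6% in the poorest group and 4.49% in the richest.

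Among transcript classes, 3.59% of 11807 protein-coding genes were higher under IL-1β and 21.5% lower. Of 622 processed pseudogenes, 11.4% were higher and 14.3% lower. Of 154 lincRNA genes, 11.7% were higher and 31.2% lower, at a median average of 2.94. The share of lower genes lay between 16.4% on chromosome 7 and 24.8% on chromosome 6 among the nuclear chromosomes. The 34 mitochondrially encoded genes held none that was higher and 3 (8.82%) that were lower, against 4.25% and 21.2% of all genes. mt-Co2, a subunit of cytochrome oxidase, had a mean of 865 under IL-1β and 1384 under vehicle, while mt-Co3 of the same complex stood at 3844 under IL-1β and 3640 under vehicle.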

How the data were processed

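RNA of 6 EGC libraries (3 under IL-1β at 10 ng/ml for 24 h, 3 under vehicle) had been read from the 3′ end with a strand-specific, oligo-dT primed kit. Per the labels, the submitters' notes name cutadapt, STAR, Partek and the build mm10, without versions. The deposited table holds, for each gene, the authors' least-squares mean of each group, a signal value scaled to a common total, and how it was normalized the sources used here do not state. Since a transcript gives 1 fragment in such libraries, levels were compared between genes without a length correction. The table's own p-values, adjusted p-values, ratios and signed folds were left aside, and no column of the table gave single libraries. Depth and precision per library are unknown.

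Ratios, differences and sums were computed from the 2 group means with Python 3.11.15, pandas 2.3.3 and numpy 2.4.6. Genes were kept where the larger of the means was at least 1, and 1.5-fold was the limit for counting. No test was run on group means alone, and none is reported. Named genes were the 15 largest differences and, above a mean of 50, the 15 largest ratios each way, the 15 highest means, up to 4 members of each list past the limit, members against their list, and the receptor and marker genes; other members are named as contrasts and were chosen after their values were seen. The 75 gene lists and the named genes were chosen with earlier results of these data known. Gene positions and transcripts came from GENCODE vM21 (GRCm38), matched for 13272 genes, and promoters from RefSeq (GRCm38.p6). The 11 symbols that had been turned into dates were left unnamed. The call rule was tested on simulated data. Alternatives were the fold limit, the minimum mean, a pseudocount and rescaling. The macrophage table of the series was not used here.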

Additional observations from a re-analysis of the deposited data

How the results depend on the processing

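The counts of genes past the limit depended on how it was set. As deposited they were 571 higher and 2855 lower under IL-1β. A 2-fold limit gave 136 higher and 1341 lower, and a minimum mean of 10 gave 281 higher and 1371 lower among 8571 genes. A pseudocount of 1 gave 379 higher and 2316 lower. Division by the median ratio, which shifts every log2 ratio by 0.14 upwards, gave 936 higher and 2236 lower, so that 29.5% of the genes past the limit were higher, against 16.7% as deposited. Rescaling without AY036118 gave 639 higher and 2705 lower, and no minimum mean gave 572 higher and 2855 lower. Lower genes outnumbered higher genes in each of these settings, by 2.39-fold to 9.86-fold. Of 854 log2 ratios of 285 genes under the pseudocount, the median and the rescaling, 792 stayed on the same side of the limit, 62 crossed it and 0 turned round. Of 900 list counts, 204 moved by over 1.5 times. Leaving out single libraries could not be done with group means. No paired analysis was possible because the columns carry group means and no replicate number. Whether any difference exceeds the spread between libraries cannot be told from these means.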
